A study of Xenopus laevis with 3 samples.

Results

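Giant linker proteins tie the membrane of a cell to its cytoskeleton, and 4 genes of this kind were examined for coding sequence variation in Xenopus laevis: dst, ahnak-like, ank3 and prx. Each has a copy on the long (L) and on the short (S) subgenome of this allotetraploid frog, so the members are 8 gene copies of 11603 copies listed with an amino acid change. They were found by their symbols in the deposited table of L and S pairs. The genes had been chosen by their counts of missense, damaging and synonymous sites in these same data. Those counts are therefore given as a description, and no test is made of them.

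RNA came from whole tadpoles at Nieuwkoop-Faber (NF) stage 42, raised in a gentamycin-containing medium and frozen without further treatment. The 3 libraries are offspring of an inbred albino cross, offspring of an inbred pigmented J Strain cross, and offspring of albino and J Strain parents mated with each other in both directions. The letter codes for the strains contradict each other in the labels and were not used. Tadpoles were pooled by 10 per cross, and the stated depth was 30000000 to 47000000 paired reads of 100 bases per library, with 1 library per group. The variant tables hold 1 set of values for the whole series, so no site can be assigned to a strain or cross and no spread between libraries can be given. A site is seen only where reads cover it, and the part that read depth or expression level plays in the counts was not tested.

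The linkers differ in what they connect. Dystonin, encoded by dst, is a spectraplakin with actin-, microtubule- and intermediate filament-binding forms; in mammals it anchors keratin at hemidesmosomes and supports the axons of sensory neurons. AHNAK is a very large, repeat-rich scaffold beneath the plasma membrane that binds actin and the annexin A2 complex in mammals, and ahnak-like carries its name by similarity. Ankyrin-G, encoded by ank3, holds ion channels and adhesion molecules on the spectrin skeleton, at the axon initial segment and at lateral membranes of epithelia. Periaxin, encoded by prx, is a PDZ-domain protein of myelinating Schwann cells and lens fibres in mammals, where it joins the dystroglycan complex to the cell cortex.

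The 8 copies together held 127 missense sites, which change an amino acid, and 150 synonymous sites, which do not. PolyPhen-2, a predictor of the effect of amino acid changes, gave a class to 95 of the missense sites. Of those, 57 were benign, 15 possibly damaging (probability from 0.447) and 23 probably damaging (from 0.909). Damaging sites of both classes were thus 40% of predicted sites, beside 19.9% over all listed genes, and probably damaging sites were 60.5% of the damaging ones, beside 35%. These shares belong to the counts that chose the genes and are not evidence about linkers as a class. The other 32 missense sites had no prediction.

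Dystonin had the most variant sites of the 4 pairs, in very long protein models. The S copy (Xelaev18029490m) held 42 missense and 55 synonymous sites, and the L copy (Xelaev18027360m) 10 and 14. Only 7 listed genes had more missense sites than dst.S and only 4 had more synonymous sites. The missense fraction, missense over all coding sites, was 43.3% in dst.S (95% Wilson interval 33.9 to 53.2) and 41.7% in dst.L (24.5 to 61.2), beside 42.9% over all listed genes. Per 1000 residues up to the last listed site, the number of missense positions was 5.48 in dst.S and 1.45 in dst.L, against 13.7 in ahnak-like.S and 6.97 in prx.S, so dst.S does not lead on that scale. The copies differed 4.2-fold in missense and 3.93-fold in synonymous sites, with overlapping intervals for the fraction. Wilson intervals here cover counting error only.

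No listed gene held more damaging sites than ahnak-like.S. The S copy (Xelaev18024207m) held 35 missense sites, 16 of them damaging, and 25 synonymous sites. The L copy (Xelaev18022246m) held 5 missense sites, 0 of them damaging, and 4 synonymous sites. Of the 16 damaging sites in ahnak-like.S, 11 were in the probably damaging class. The damaging share was 45.7% of 35 predicted sites (30.5 to 61.8) in the S copy, while only 1 site of the L copy had a prediction, which allows no comparison of the copies. The missense fraction was 58.3% in S (45.7 to 69.9) and 55.6% in L (26.7 to 81.1).

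Ankyrin-G leaned the other way. The L copy (Xelaev18034468m) held 15 missense sites, of which 7 were damaging, and 27 synonymous sites. The S copy (Xelaev18036798m) held 3 missense sites, 0 damaging among 2 predicted, and 18 synonymous sites. The copies differed 5-fold in missense sites and 1.5-fold in synonymous sites. The missense fraction was 35.7% in ank3.L (23.0 to 50.8) and 14.3% in ank3.S (4.98 to 34.6), and these intervals overlap.

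Periaxin had the fewest sites. The S copy (Xelaev18042528m) held 14 missense sites, 5 of them damaging, and 6 synonymous sites, and the L copy (Xelaev18039314m) 3 missense sites, all damaging, and 1 synonymous site. The missense fraction was 70.0% in prx.S (48.1 to 85.5) and 75.0% in prx.L (30.1 to 95.4), the highest of the 4 pairs. With 20 and 4 coding sites, both intervals are wide.

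**Figure D1:**
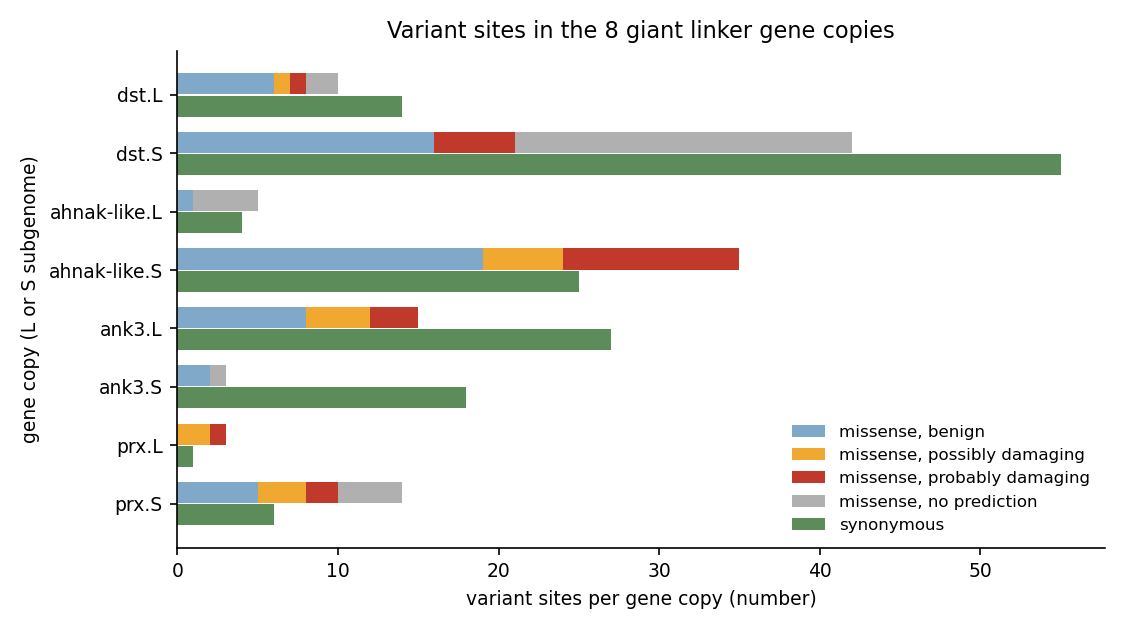
Number of variant sites (x axis) in each of the 8 gene copies (y axis), with missense sites split by predicted class in the upper bar and synonymous sites in the lower bar of each copy. The missense bars of dst.S (42) and ahnak-like.S (35) are the longest of their kind, the longest synonymous bars are those of dst.S (55) and ank3.L (27), and ank3 is the pair with the longer bars in L.

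Set side by side, the S copies held 94 missense and 104 synonymous sites and the L copies 33 and 46, with ank3 as the exception in direction for both kinds of site. Most of the 94 lay in dst.S (42) and ahnak-like.S (35). Among 1329 pairs with both copies listed, the median difference between copies was 1 missense site. The S copy held more missense sites in 530 of these pairs and the L copy in 410, and 389 were equal. More sites in S is thus the commoner direction among pairs with both copies listed. Pairs with only the L or only the S copy listed were not counted. A difference of at least 32 sites, that of dst, was found in 2 pairs including dst itself, and one of at least 30, that of ahnak-like, in 3 pairs. A difference as large as that of ank3 (12) was found in 36 pairs and one as large as that of prx (11) in 40. For synonymous sites, no other pair had a difference as large as that of dst (41). Missense and synonymous differences pointed the same way in all 4 pairs, and in 68.5% of the 838 pairs in which neither difference was 0.

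**Figure D2:**
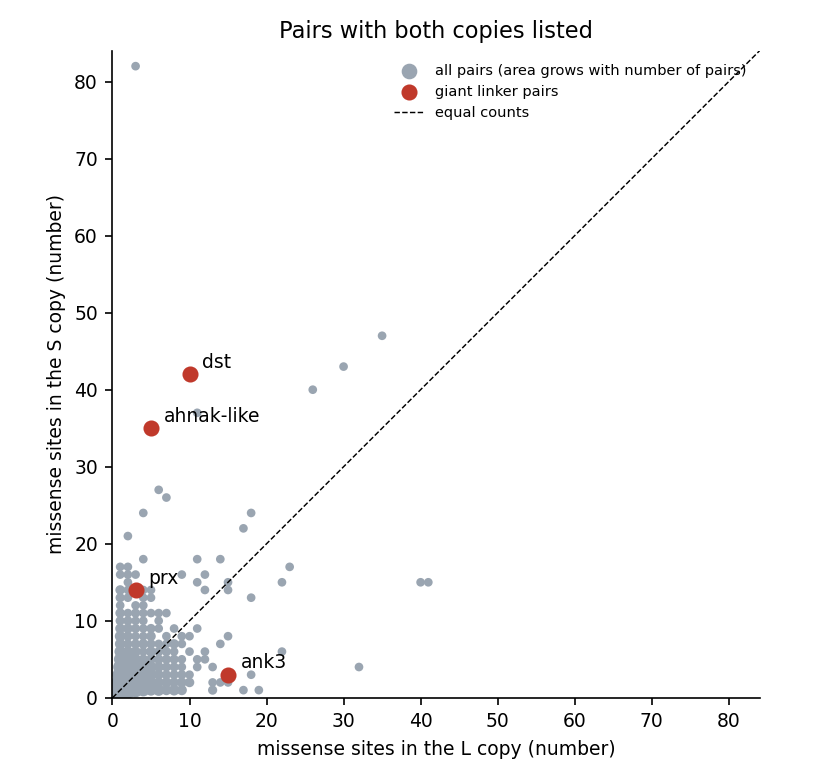
Missense sites in the L copy (x axis) and the S copy (y axis) of the 1329 pairs with both copies listed, grey, with the 4 giant linker pairs in red; the dashed line marks equal counts. The pairs dst (10 and 42), ahnak-like (5 and 35) and prx (3 and 14) lie above the line and ank3 (15 and 3) below it.

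The positions of the sites in the protein were not used to choose the genes. They are residue numbers in the authors' protein models, which differ between copies, and a change is written with the reference residue first. Missense sites of dst.S ran from residue 553 to residue 7664. Those of dst.L ran from residue 14 to residue 6196.

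In dst.S the predicted and unpredicted sites fell into separate stretches. All 21 sites from residue 553 to residue 3145 had a prediction, and all 21 sites from residue 3515 to residue 7664 had none. The table also gives each site a number under the column name Nobs, read here as the number of residues aligned at that position, the meaning of this name in PolyPhen-2 output; every statement on aligned residues rests on that reading. This number was 106 to 116 for the 8 sites up to residue 1350. It was 17 to 21 for the 11 sites from residue 1575 to residue 2467, 1 for T3125A and I3145M, and 0 for every site beyond. The change is stepwise along the protein, and a site with 0 aligned residues received no prediction anywhere in the series. Among 48 copies with at least 10 missense positions and at least 5 sites of each kind, such a full separation was found in 20, so it is not rare.

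The L copy showed another layout. In dst.L the 6 sites from residue 3803 to residue 6196 rested on 163 to 300 aligned residues, while V688E and D1579N rested on 1 each and the changes D14H and D14A at the same residue on 0. The sites with the most aligned residues therefore lay in the later part of dst.L and in the early part of dst.S. The damaging share was 25.0% of 8 predicted sites in dst.L and 23.8% of 21 in dst.S. Predicted sites ran from residue 688 to residue 6196 in dst.L and from residue 553 to residue 3145 in dst.S. The copies were not aligned with each other, so whether the 2 shares cover matching stretches is not known.

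**Figure D3:**
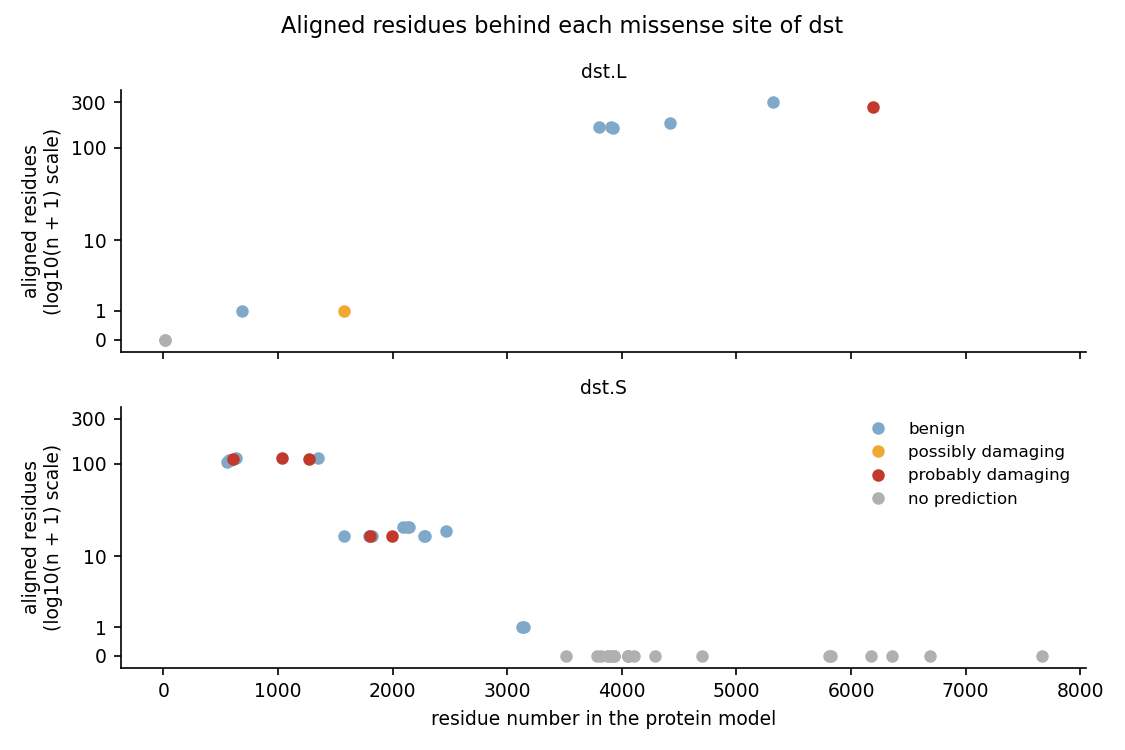
Aligned residues behind each missense site (y axis, log10(n + 1) scale with labels in numbers of residues) against residue number (x axis) in dst.L and dst.S, coloured by predicted class. In dst.S the values step down from 116 to 0 along the protein; in dst.L the highest values, 163 to 300, lie from residue 3803 on.

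All 5 damaging sites of dst.S were probably damaging. They lay in its aligned stretch, the only part in which its sites received a class. K608E, which replaces a basic with an acidic residue, had a probability of 0.998 on 114 aligned residues, and R1271Q had 0.997 on 114. S1032T followed with 0.976 on 115. The other 2 rested on 17 aligned residues each: L1991M at 0.956 and E1803K, a change from acidic to basic, at 0.955. K608E was the 1 member site matched to a solved protein structure, entry 2iak in the deposited table, with 0.69 identity over 212 residues; 2.73% of all missense sites had such a match. In dst.L, R6196Q had a probability of 0.917 on 269 aligned residues and D1579N, a possibly damaging site, 0.737 on 1.

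The unpredicted stretch of dst.S held its densest group of changes. T4051I, Y4053C, N4055D and D4058Y lie within 8 residues, and K3928T and L3929H are neighbours. Of the 311 copies with at least 10 missense positions, 30.9% had at least 4 positions in some stretch of 30 residues. That many positions in 30 residues is thus common among variable genes. How many copies hold 4 positions within 8 residues was not counted. Neighbouring missense positions of dst.S lay within 30 residues of each other in 17 of 41 cases (41.5%), beside a median of 43.8% over the 311 copies. The same share was 30.3% in ahnak-like.S, 14.3% in ank3.L and 7.69% in prx.S. Within 100 residues the share of dst.S was 53.7%, beside a median of 75%, and no chance model of spacing was built.

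In ahnak-like.S the changes were spread from residue 67 to residue 2479, with 34 positions and a median of 46 residues between neighbours. The 8 damaging sites with the highest probability began with L67F (0.994 on 220 aligned residues), E430A (0.987 on 246) and G522W (0.988 on 268). At residue 755 the acidic reference residue had 2 listed changes, D755N (0.978) and D755G (0.969), both on 145 aligned residues. Whether the 2 changes occur together in 1 transcript is not known. K822E had 0.997 on 142 and P871A, the highest, 0.999 on 187. The last was A2479V, with 0.978 on 137. Aligned residues numbered 3 to 269 over the 35 sites, with a median of 195 for damaging and 225 for benign sites. Apart from V1475I (17), N2326K and I2385V (3 each), every site had at least 137.

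Damaging sites of ahnak-like.S lay mostly toward its N terminus. Up to residue 1239, the middle of the protein model as far as its last listed site, 14 of 23 predicted sites were damaging (60.9%, 40.8 to 77.8). Beyond it the count was 2 of 12 (16.7%, 4.7 to 44.8): N2326K and A2479V. The difference of 44.2 percentage points was reached in absolute size by 10 of 141 copies with at least 4 predicted sites in each part, ahnak-like.S included, where the median was 14.3. The division was made after the positions were seen, and the difference was not tested. The damaging counts that chose the genes enter both shares. At a damaging share of 45.7%, beside 19.9% over all listed genes, 2 parts have more room to differ. The rank is therefore not independent of the choice of genes. The 5 missense sites of ahnak-like.L lay from residue 313 to residue 2883, and E2764G, with 10 aligned residues and a probability of 0, was the only 1 with a prediction.

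Ankyrin-G had no listed missense site in the N-terminal part of either copy. In vertebrate ankyrins this end holds the ankyrin repeats that bind membrane proteins, followed by the spectrin-binding region; where those domains end in these models was not determined. The first site was T1603S in ank3.L and N1492S in ank3.S. The last was T3993A in ank3.L and T3424M in ank3.S. In ank3.L the first listed position stood at 40.1% of the last, beside a median of 9.4% over 311 copies, and 20 of those copies had a value at least as high. Synonymous sites carry no position in the deposited tables, so whether they are also missing from the N terminus could not be examined.

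The 7 damaging sites of ank3.L ran from residue 1603 to residue 3660. Divided as for ahnak-like.S, 3 of 4 predicted sites were damaging up to residue 1996 (75%, 30.1 to 95.4). Beyond it the count was 4 of 11 (36.4%, 15.2 to 64.6). A difference of at least these 38.6 percentage points in absolute size, in either direction, was found in 16 of the 141 copies, ank3.L included. How many of these copies lean early was not counted. The difference in ank3.L was not tested, and its rank is likewise not independent of the damaging counts that chose the genes. P1740S had the highest probability, 0.994 on 33 aligned residues, followed by L3660I (0.97 on 26) and S1634T (0.962 on 32). T1603S reached 0.726 on 31. The remaining 3 lay closer to the boundary of the benign class: D3433G (0.564 on 25), Q2533H (0.545 on 23) and T2027K (0.475 on 31). The damaging share was 46.7% of 15 predicted sites (24.8 to 69.9), or 20% with probably damaging sites alone. Serine or threonine was the reference residue in 6 of the 15 sites (40.0%), beside 17.9% over all missense sites.

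Predictions in periaxin rested on few sequences. No site of prx.L or prx.S had more than 3 aligned residues, beside a median of 44 over all predicted sites of the series. Of all predicted sites, 28.4% rested on fewer than 10 aligned residues, so thin alignment is not particular to periaxin. In prx.L the changes D1171Y (0.937) and D1171V (0.908) share a residue, and the third was E274A (0.497). In prx.S, G2009D had a probability of 0.97 on 2 aligned residues and P686H 0.952 on 3. P258A (0.737 on 1), K800N (0.617 on 3) and K654R (0.497 on 3) were possibly damaging. With at least 10 aligned residues required, none of the 13 predicted periaxin sites is left.

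**Figure D4:**
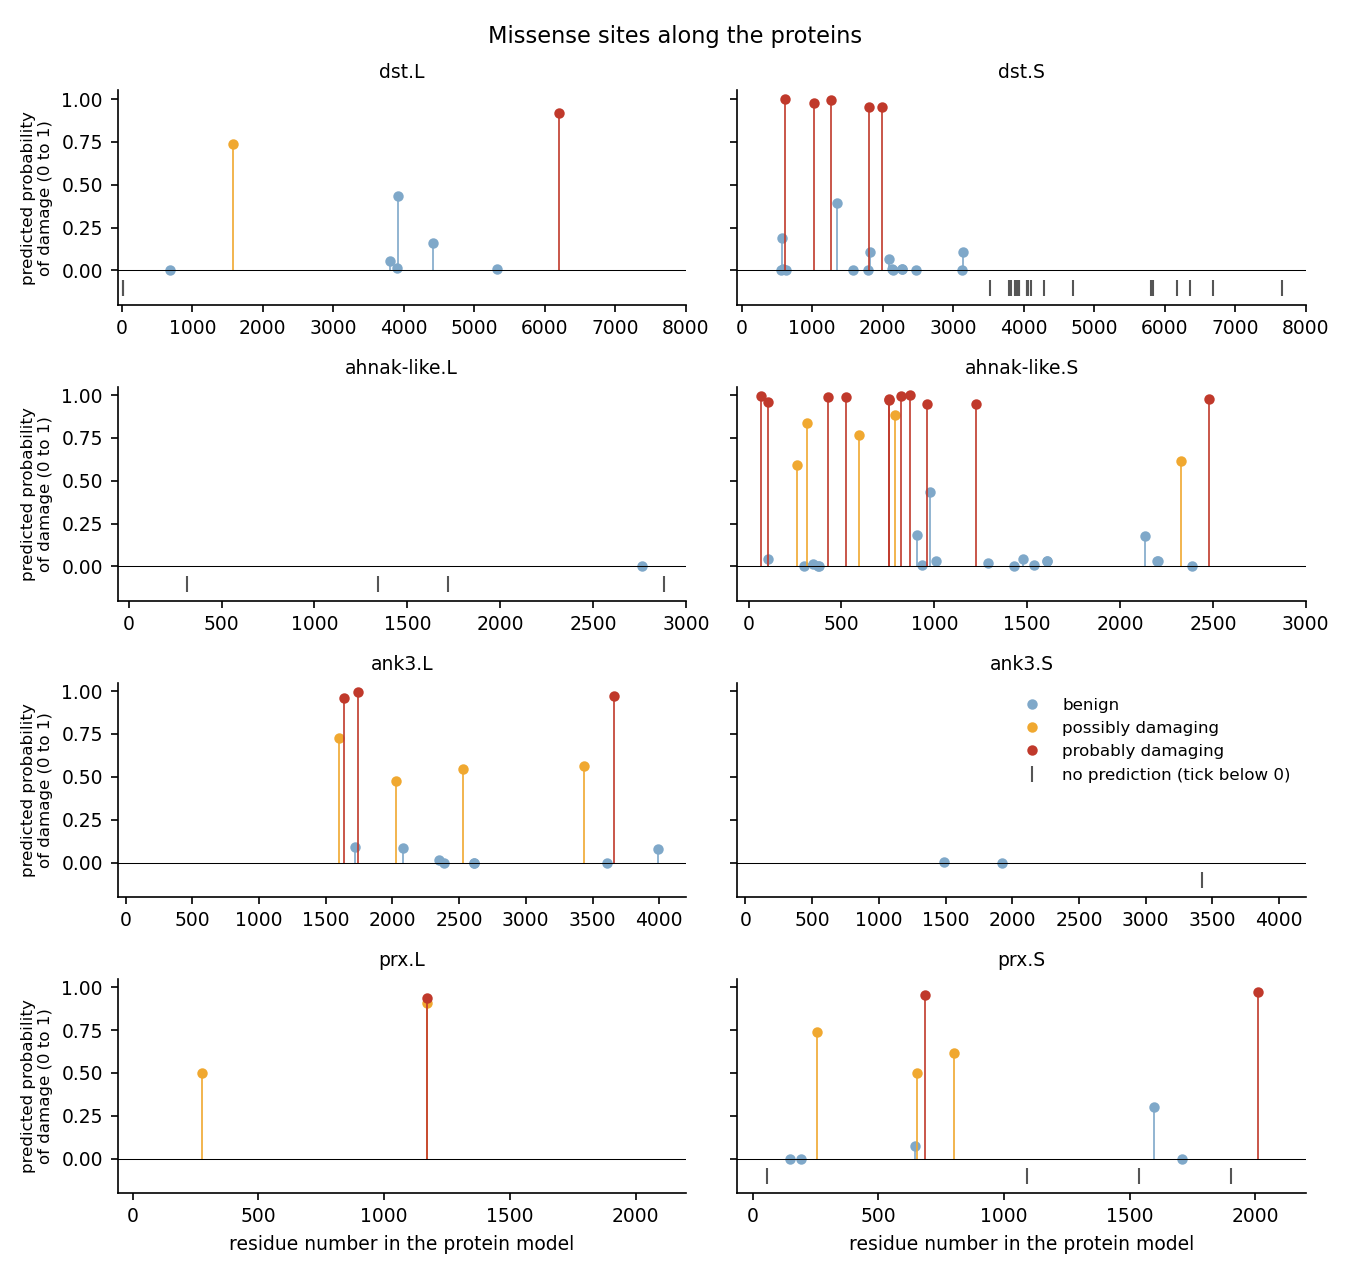
Predicted probability of damage (y axis, 0 to 1) of each missense site against residue number (x axis) in the 8 copies; sites without a prediction are ticks below 0, and the x axes differ between genes. The ticks of dst.S fill the stretch from residue 3515 to residue 7664, 14 of the 16 damaging sites of ahnak-like.S lie up to residue 1239, and ank3.L has no site before residue 1603.

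The share of missense sites without a prediction was compared between each copy and all other genes by a two-sided Fisher's exact test, adjusted over the 1362 genes with at least 5 missense sites. It was not a measure that chose the genes, although a site without a prediction cannot count as damaging, so the 2 are linked in ahnak-like.S and ank3.L. Over all missense sites the share was 16.9%. Among the 327 genes with at least 10 missense sites, however, the median share was 0%. Of these genes, 187 (57.2%) stood at 0%, as did ahnak-like.S and ank3.L. Another 77 (23.5%) stood at 50% or more, as did dst.S, so neither value is rare among variable genes. Sites of 1 gene share an alignment and are not independent, which makes these p-values too small. Of all tested genes 13.9% passed, 13.2% with a higher share. Of the 6 member copies tested 3 passed, 2 of them with a higher share. With the test run only among the 327 genes with at least 10 missense sites, 121 passed, so passing was commoner among variable genes. In that setting dst.S, ahnak-like.S and ank3.L passed, and dst.L and prx.S did not. The member count is therefore no sign that linkers stand apart from other variable genes.

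In dst.S 21 of 42 sites had no prediction (50.0%, 35.5 to 64.5, Fisher's exact adjusted p = 1.82e-05), and the adjusted p was 0.000155 and 0.00596 under the alternatives. In ahnak-like.L it was 4 of 5 (80.0%, 37.6 to 96.4, Fisher's exact adjusted p = 0.0269). In ahnak-like.S it was 0 of 35 (0 to 9.89%), the lower side (Fisher's exact adjusted p = 0.0209). When every listed gene entered the adjustment, both ahnak-like copies lost the call (0.162 for L and 0.139 for S). Among genes with at least 10 missense sites ahnak-like.S kept it (Fisher's exact adjusted p = 0.000182). The values were 0 of 15 in ank3.L (Fisher's exact adjusted p = 0.451, or 0.0435 among genes with at least 10 missense sites), 4 of 14 in prx.S (0.673) and 2 of 10 in dst.L (0.742).

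The kind of base change was inferred from the genetic code, because bases are given for only 6 entries of the table. Over the 8 copies, 60 exchanges can arise by a single transversion alone and 52 by a single transition alone, so 53.6% were transversions, beside 51.8% over all genes. The share was 56.7% of 30 typed exchanges in ahnak-like.S, 48.6% of 35 in dst.S, 71.4% of 14 in ank3.L, 50.0% of 14 in prx.S and 44.4% of 9 in dst.L. None of these 5 copies passed a two-sided Fisher's exact test (adjusted p = 1 for each), nor did any of the 1226 genes tested (0%), of which 16 had an unadjusted p under 0.05 on the high and 20 on the low side.

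Other linkers and their partners were taken from 8 lists of cytoskeletal and membrane genes, without the 4 members. Of 96 symbols 25 were in the pair table, and 20 of their copies were listed, with 46 missense and 147 synonymous sites (23.8% missense). Of the 15 copies with at least 5 sites, 0 passed on the high side and 1 on the low side when missense and synonymous sites were set against those of all other genes; of the 5005 genes tested, 1.32% passed in either direction. That copy was plec.S, which encodes plectin, a plakin that links intermediate filaments to junctions, where 1 of 20 sites was missense (5%, Fisher's exact adjusted p = 0.0354). The call held among genes with at least 10 sites (0.0401) but was lost when every listed gene was adjusted for (0.0821) and when the 1% of genes richest in sites was left out (0.061).

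Among the plakins and spectraplakins 6 copies were listed, 5 of them tested. The closest relative of dystonin, macf1.L, which crosslinks actin and microtubules, held 9 missense and 7 synonymous sites, with 4 of 6 predicted sites damaging. The periplakin copies ppl.L and ppl.S held 7 and 9 and 2 and 15 sites, with 0 damaging. Plectin's L copy held 3 and 20, all 3 missense sites without a prediction. None of these passed (Fisher's exact adjusted p from 0.135 to 1).

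The copies found for the remaining lists had few sites. Pairs whose symbol carries a suffix were not among them. Such pairs include utrn-like.1 (6 missense sites in L and 1 in S), syne3-like (4 and 3) and itgb4-like (1 and 2). The list of nesprins, dystrophins and other giant linkers had 5 listed copies, none of them a nesprin, dystrophin or utrophin. Of these, dag1.S held 1 missense site, which was damaging, and 4 synonymous sites. It encodes the dystroglycan to which periaxin is joined in mammals. The other leading copies of that list were dag1.L, with 2 missense and 0 synonymous sites, and flnc.L, encoding an actin-crosslinking filamin, with 1 and 4. Among basal adhesion genes (6 copies), the integrin subunits itga3.L (6 and 17, 1 damaging) and itga6.S (2 and 3) and the keratin krt18.S (2 and 6) led. Of ankyrin-bound membrane proteins, the adhesion molecule nrcam.L held 1 and 11, its missense site damaging, and the cadherin cdh1.S 2 and 6. The single spectrin-network copy listed, the adducin add3.S, held 1 damaging missense site and 0 synonymous sites. The other ankyrins and AHNAK genes (0 of 2 symbols of each list in the pair table) could not be looked up. Of the AHNAK partners 2 of 13 symbols were in the pair table, and 0 of their copies were listed. Of the tested copies in these lists, 0 of 10 passed.

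The pairs most like each member were sought over 4 values, the log2 numbers (with 1 added) of missense and synonymous sites in L and S, among 1021 pairs with a symbol and both copies listed. Nearest to dst were the histone methyltransferase gene kmt2c (6 and 11 in L, 27 and 41 in S, distance 1.04) and the centrosomal scaffold gene akap9 (11 and 14, 37 and 26, distance 1.07). Nearest to ahnak-like were prrc2a (2 and 4, 21 and 25, distance 1.23) and akap13-like (7 and 6, 26 and 12, distance 1.26). Nearest to ank3 were dmxl2 (9 and 20, 2 and 10, distance 1.19) and the valyl-tRNA synthetase gene vars (8 and 23, 1 and 15, distance 1.34). Nearest to prx were ssfa2 (2 and 1, 8 and 7, distance 0.867) and the adhesion molecule gene vcam1 (5 and 1, 14 and 11, distance 0.973). Missense sites come first in each of these counts.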

How the data were processed

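Variant sites came from RNA sequencing of 3 libraries. CASAVA 1.8.2, TopHat, Trimmomatic and SAMtools appear in the submitters' processing notes; how variants were called and filtered, and on which build, is not given in the sources used here. Of the tables, the authors deposited counts of missense and synonymous sites per gene, a per-site table with the predicted probability (a fraction, per the file headers) and a column named Nobs, read here as the number of aligned residues, the profile score difference (a score, deposited by the authors and not used in the text), and a table of L and S pairs. For all 11603 genes the deposited class counts matched a recount of the per-site entries. Genes without any missense site are not listed, and 1 header line counted as a gene was dropped.

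The members and gene lists were chosen with earlier results of these data known. Fisher's exact tests, two-sided, set each gene against all other listed genes (Python 3.11.15, SciPy 1.17.1). Benjamini-Hochberg adjustment at 0.05 ran over genes with at least 5 sites. The test of missense against synonymous sites was tried on simulated counts with independent sites. Sites without a prediction and base changes were not simulated. The planned comparison of base changes was run on types inferred from amino acid exchanges (Biopython 1.88), since bases are mostly absent. Named genes are the members, list copies that passed, up to 3 copies per list with the most damaging sites, and the 2 nearest pairs per member; any other copy was named once its value was known. Within a copy, up to 8 damaging sites were named by rule. Read depth per site was not analysed here.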

Additional observations from a re-analysis of the deposited data

How the results depend on the processing

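Of 68 alternative values, 49 kept their direction and side of the threshold or stayed within the interval of the value reported. Several of the 49 could not have changed. Examples are each position counted once in copies without a repeated position, and damaging shares of copies without damaging sites. Numbers of genes passing have no interval, and a rise from 66 to 94 was counted as kept. The 49 are therefore no measure of stability. The number of genes passing for the missense fraction was 66, and became 28 when every gene was tested, 14 after the 1% of genes richest in sites were left out, and 94 among genes with at least 10 sites. For sites without a prediction it was 189, and 121 with at least 10 missense sites per gene, where dst.L moved to the low side without passing (Fisher's exact adjusted p = 1). Counting probably damaging sites alone took the damaging share of ank3.L to 20%, of prx.L to 33.3% and of prx.S to 20%, and a probability of at least 0.9 gave 20% for ank3.L and prx.S. Neighbouring missense positions within 10 residues were 17.1% in dst.S, 12.1% in ahnak-like.S, 7.14% in ank3.L and 7.69% in prx.S, beside a median of 20% over 311 copies. Within 100 residues they were 81.8% in ahnak-like.S, 57.1% in ank3.L, 53.7% in dst.S and 46.2% in prx.S, beside a median of 75%. No share falls as the stretch widens, but the standing beside the median can change. The share of ahnak-like.S was below the median within 10 and within 30 residues (30.3% beside 43.8%) and above it within 100. Those of dst.S, ank3.L and prx.S were below the median in each setting. Their median gaps between neighbouring positions were 55, 79 and 108 residues, beside a median of 42 over the 311 copies. A copy with wider gaps tends by construction to have lower shares, and no chance model of spacing was built. With at least 10 aligned residues periaxin has no value. Leaving out positions with several variant residues, an alternative chosen after seeing the data, left the number of genes passing for base changes at 0. No paired analysis was possible because each group has 1 library and the tables name none.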

Other observations

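The chemistry of the changes differed among the linker copies, also between copies of the same gene, as a description over few sites. Acidic residues were the reference in 21 of the 127 missense sites (16.5%), beside 10.8% over all missense sites, but the copies ranged from 5 of 10 sites in dst.L, where 3 were D-to-N changes, and 3 of 3 in prx.L to 5 of 42 in dst.S (11.9%) and 0 of 14 in prx.S. A change of charge occurred in 8 of 10 sites of dst.L, 3 of 5 of ahnak-like.L and all 3 of prx.L. It occurred in 14 of 42 of dst.S (33.3%), 9 of 35 of ahnak-like.S (25.7%) and 4 of 14 of prx.S (28.6%). In ank3.L it was 3 of 15 (20%) and in ank3.S 0 of 3, beside 28% over all missense sites. Residue 14 of dst.L and residue 1171 of prx.L each enter these counts with 2 changes. Exchanges among isoleucine, leucine, valine and methionine made up 11 of 42 sites in dst.S (26.2%) and 8 of 35 in ahnak-like.S (22.9%), beside 12.9% over all. None of these shares was tested.

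Positions with more than 1 variant residue numbered 3 of 124 in the members, at residue 14 of dst.L, residue 755 of ahnak-like.S and residue 1171 of prx.L, beside 1.36% of all missense positions. The reference residue was aspartate at each. In ahnak-like.S the same exchange recurred at distant residues. Exchanges also recurred in dst.S (I to M 3 times), dst.L (D to N 3 times) and ank3.L (T to A and T to S 2 times each). How often they recur in other variable genes was not examined. In ahnak-like.S those found 3 times were S934P, S1429P and S1538P, and I1007L, I1606L and I2136L, all 6 sites benign. Among those found 2 times, L67F and L787F were both damaging. V260I and N2326K were damaging while V1475I and N349K were benign, and both F-to-L and both S-to-N sites were benign.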
